A study of Mus musculus with 6 samples.

Results

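The genes described here are the oxygen-sensing pathway of the hypoxia-inducible factors (HIF): Hif1a, Epas1, Arnt, Vhl, Egln1, Egln2, Egln3, Hif1an and Ddit4. Members were all probe sets whose only gene symbol in the platform annotation was one of these names, which gave 22 probe sets for the 9 genes, of 34945 probe sets and 18193 genes with 1 symbol. Expression had been measured with Affymetrix 3' arrays, which hybridise labelled RNA to sets of short probes, in myeloid cells sorted from the femur and tibia marrow of Hdc-GFP mice on a C57BL/6 background. The Gr1hi group (3 arrays) and the Gr1lo group (3 arrays) were both GFP positive or high and CD11b positive, and differed in the antigen Gr1 used to sort them. GFP in these mice reports Hdc, the gene of the enzyme that makes histamine, so the cells of both groups are those in which that gene's reporter is active. All 6 samples carry the same reporter and no treatment is labelled. The labels give neither an age nor the number of animals behind an array. Nothing says that the replicates came from separate mice, so the p-values refer to the spread among these arrays, part of which may be technical. In RNA from many cells, fewer cells of a type and less RNA per cell cannot be told apart.

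HIF is a transcription factor made of an alpha subunit, HIF-1 alpha or HIF-2 alpha, and a constitutive partner, ARNT. In the presence of oxygen the EGLN prolyl hydroxylases modify the alpha subunit, the VHL ubiquitin ligase then marks it for destruction, and the asparaginyl hydroxylase FIH (gene Hif1an) blocks its contact with the coactivators p300 and CBP. When oxygen is short the alpha subunit accumulates and switches on genes of glycolysis, of mitochondrial clearance and of blood vessel growth. Neutrophils live largely by glycolysis, and bone marrow is a tissue of low oxygen. Most of this control acts on protein stability, which arrays do not measure; the values below are of transcripts.

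On the Gr1hi arrays 6 of the 9 genes rose and 1 fell relative to the Gr1lo arrays, while 2 did not pass the test. Hif1a rose 1.72-fold, its dimer partner Arnt 1.45-fold, and the hydroxylase genes Egln3, Egln2 and Hif1an 2.25-fold, 1.44-fold and 1.57-fold. Egln1 fell 2.1-fold, opposite to both of its relatives. Ddit4, a HIF-responsive inhibitor of the growth kinase mTORC1, rose 3.07-fold. Epas1 lay at the level of absent transcripts on all arrays, and Vhl differed by less than the test could call. Of all 12739 tested genes, 24.6% were called higher and 31.8% lower in Gr1hi, 56.4% in all, so a call by itself does not set a gene apart here. The median difference of the 9 genes was 0.53 on the log2 scale, against 0.03 for all tested genes.

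Every difference is Gr1hi minus Gr1lo in log2 probe set values, 1 probe set per gene unless an ID is given, from a limma fit across all tested genes with Benjamini-Hochberg adjusted p under 0.05 as the threshold. Intervals are 95% intervals of that fit and are not adjusted. Values on these arrays ran from 0.87 to 15.01, and the 3 controls for transcripts that are not in the sample read at most 2.77, so values near that level show no detected transcript. Levels of different probe sets cannot be compared with each other. The direction of small differences rests on the scaling of the arrays: centring on the median of the tested genes added 0.68 to every difference, and centring on the 18 hybridization control probe sets took 0.26 away.

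The labelled cell type was checked on marker lists. Hdc itself averaged 12.33 ± 0.30 in Gr1hi and 10.86 ± 0.12 in Gr1lo, and the neutrophil gene S100a8 averaged 14.94 ± 0.03 in Gr1hi and 14.87 ± 0.05 in Gr1lo (SD, n = 3 each). Summed over 4 promyelocyte markers (Elane, Mpo, Prtn3, Ctsg), the log2 level was 10.62 to 11.57 in Gr1hi and 15.13 to 15.51 in Gr1lo, and 4 of 4 fell. The 10 neutrophil lineage markers summed to 17.46 to 17.52 in Gr1hi and 17.13 to 17.34 in Gr1lo, a sum dominated by 6 genes that averaged 14.16 or more in both groups and were not called. The 4 that rose were Cxcr2 (7.94-fold), Csf3r (6.41-fold), Mmp8 (5.52-fold) and Itgam (1.85-fold). The 7 monocyte markers summed to 11.87 to 12.19 in Gr1hi and 9.96 to 11.04 in Gr1lo, with 1 higher (Csf1r) and 1 lower (F13a1). Ccr2, Ly86, Cx3cr1, Irf8 and Klf4 were not called, and the Gr1hi sum was carried by Csf1r. That gene averaged 11.78 ± 0.08 in Gr1hi and 7.77 ± 1.07 in Gr1lo (SD, n = 3 each). The 8 T and NK cell markers summed to 8.60 to 8.84 in Gr1hi and 5.87 to 6.32 in Gr1lo, with 4 of 6 tested higher, and that sum was carried by Cd3d (8.49 ± 0.15 in Gr1hi and 4.32 ± 0.69 in Gr1lo; SD, n = 3 each). The other 3 called, Klre1, Prf1 and Eomes, averaged 2.87 to 3.10 in Gr1hi, near the absent-transcript controls, and Cd3e and Cd3g were not above those on any array. Of 5 tested macrophage markers Cd68 (21.4-fold) and Adgre1 (7.95-fold) were higher and Vcam1 (38.1-fold) lower, with the list's sum at 9.67 to 10.17 in Gr1hi and 10.21 to 10.71 in Gr1lo. Of 5 tested B cell markers 3 were higher (Cd79a, Ms4a1, Ebf1) and 1 lower (Cd79b), summing to 5.91 to 6.35 in Gr1hi and 6.02 to 6.22 in Gr1lo. Cd79a averaged 2.84 in Gr1hi and 2.53 in Gr1lo and passed the highest absent-transcript control on 2 arrays. Ms4a1 averaged 3.69 in Gr1hi and 2.73 in Gr1lo, the second below that control. Of 4 tested basophil and mast cell markers Ms4a2 was lower (3.11-fold), and the sum was 5.40 to 8.20 in Gr1hi and 6.51 to 8.07 in Gr1lo. The part of these markers in the differences below was not tested. The 3' minus 5' value of the beta-actin control probe sets, a measure of RNA integrity, was 0.65 to 0.76 in Gr1hi and 0.77 to 0.94 in Gr1lo. Xist read 10.14 on Gr1hi replicate 3 and 10.95 on Gr1lo replicate 3 but at most 2.43 on the other 4 arrays, and the Y-linked Eif2s3y read 9.02 or more on all 6, although every sample is labelled female. The description of Gr1lo replicate 3 puts a minus sign or hyphen after GFP, while its title and source name give GFP as positive or high. Without both replicate 3 arrays the same test called 4 of the 9 genes higher and 1 lower (21.5% and 29.3% of all genes), and Arnt (adjusted p = 0.164) and Hif1an (0.0589) lost their calls.

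Upstream sequence of the genes with the largest differences is shown because HIF binds DNA at a short core, ACGTG or GCGTG. The 250 bases before the start site were taken from the RefSeq promoter table (GRCm38.p6), which matched 8 of the 9 genes. Both strings of letters were searched on both strands, and capitals mark every match; where CACGTG appears, matches on the 2 strands overlap.
Hif1a, chr12:73907617-73907866, forward strand: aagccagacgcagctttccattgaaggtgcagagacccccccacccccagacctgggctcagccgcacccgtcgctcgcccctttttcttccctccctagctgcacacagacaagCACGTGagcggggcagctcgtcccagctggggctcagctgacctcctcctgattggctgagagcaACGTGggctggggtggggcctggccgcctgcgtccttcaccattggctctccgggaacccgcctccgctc
Egln1, chr8:124949255-124949504, reverse strand: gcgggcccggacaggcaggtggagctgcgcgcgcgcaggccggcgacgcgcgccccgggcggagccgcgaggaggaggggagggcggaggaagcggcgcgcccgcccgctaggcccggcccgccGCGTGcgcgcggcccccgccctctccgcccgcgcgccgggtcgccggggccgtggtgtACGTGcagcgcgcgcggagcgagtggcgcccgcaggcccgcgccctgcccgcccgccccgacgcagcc
Egln3, chr12:54203875-54204124, reverse strand: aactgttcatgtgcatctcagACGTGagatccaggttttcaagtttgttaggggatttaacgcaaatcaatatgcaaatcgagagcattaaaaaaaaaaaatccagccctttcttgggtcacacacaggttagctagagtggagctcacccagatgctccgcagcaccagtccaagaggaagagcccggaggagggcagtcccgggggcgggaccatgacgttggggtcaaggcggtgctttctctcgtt
Ddit4, chr10:59951771-59952020, reverse strand: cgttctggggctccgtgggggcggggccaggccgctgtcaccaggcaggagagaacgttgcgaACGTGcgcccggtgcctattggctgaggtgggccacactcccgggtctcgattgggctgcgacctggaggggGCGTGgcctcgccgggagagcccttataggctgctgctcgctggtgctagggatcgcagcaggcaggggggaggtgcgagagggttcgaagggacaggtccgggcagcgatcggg
The Hif1a window held 3 matches in 2 separate runs, the Egln1 window 2, the Egln3 window 1 and the Ddit4 window 2. The window of Egln1, which fell, held the core as did those of the 3 genes that rose. In all, 7 of the 9 upstream windows of the members (Egln2 has 2 windows) held a match, and the Vhl and Hif1an windows held none of these letters. Of all 32851 windows of the same length 38.6% held one, 16.6% an ACGTG and 28.2% a GCGTG. Both strings contain CG, and the members' windows had 4 to 51 CG pairs against a median of 6 over all windows. A match is a description of the letters and not a binding site.

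Of the alpha subunits among the members, the transcript of Hif1a was detected and that of Epas1 lay at the control level. Hif1a read 11.14, 11.07 and 10.86 on the Gr1hi arrays and 10.36, 10.24 and 10.13 on the Gr1lo arrays. Every Gr1hi array lay above every Gr1lo array, by a mean of 0.78 (SE 0.11, limma adjusted p = 0.000202). The groups did not overlap in 6 members with Gr1hi above and in 1 with Gr1hi below, where 30.7% and 34.7% of all tested genes were separated in these directions. A second Hif1a probe set, 1416035_at, read 8.28, 8.03 and 7.67 in Gr1hi and 6.68, 7.03 and 6.62 in Gr1lo, a difference of 1.22 (SE 0.20). The third, 1448183_a_at, differed by 0.74 but read 2.30 to 2.73 in Gr1lo, below the highest absent-transcript control. The fourth, 1431981_at, read 1.99 or less on all arrays and was not tested. Hif1a kept its call with either centring, at differences of 1.46 (centred on the median gene) and 0.53 (centred on the hybridization controls). The median differences of all tested genes on those scales were 0.70 and -0.23. Tested against a change of 1.5-fold rather than against 0, Hif1a was not called (limma treat, adjusted p = 0.152). That stricter test kept Ddit4 and Egln3 as higher and Egln1 as lower, beside 10.6% and 19.0% of all genes. Over all 9 genes, centring on the median gene gave 8 higher and 1 lower (65.6% and 18.2% of all genes), and centring on the hybridization controls gave 3 higher and 1 lower (14.6% and 38.1%). The 8 include Epas1 (0.57, limma adjusted p = 0.00448), although its values lay at the control level.

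Epas1 encodes HIF-2 alpha, the alpha subunit best known from endothelium and other specialised cells. Its 1449888_at probe set read 2.80, 2.76 and 2.32 in Gr1hi and 2.68, 2.82 and 2.70 in Gr1lo. The groups overlapped and the difference was -0.11 (95% interval -0.40 to 0.19, limma adjusted p = 0.51). Only 2 of the 6 values passed the highest absent-transcript control. Its other probe set, 1435436_at, read 2.30 or less throughout and was set aside by the filter. Of the 8 markers of endothelium and stroma, 5 (Kdr, Pecam1, Tek, Col1a2, Lepr) were at or below that control level on every array. Of the other 3, Cdh5 (2.92 ± 0.10 in Gr1hi and 2.44 ± 0.08 in Gr1lo) and Col1a1 (2.95 ± 0.14 in Gr1hi and 2.50 ± 0.15 in Gr1lo; SD, n = 3 each) were called higher and lay above that level on the Gr1hi arrays alone, and Cxcl12 lay above it on all 6 and was not called. Cdh5 passed the filter through the Gr1hi arrays alone, where it is high, so its call is no support.

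Arnt, the partner that both alpha subunits need to bind DNA, read 7.43, 7.08 and 7.45 in Gr1hi and 6.96, 6.64 and 6.75 in Gr1lo. All Gr1hi arrays were higher, but the lowest Gr1hi value lay only just above the highest Gr1lo value. The difference was 0.53 (SE 0.18, limma adjusted p = 0.0297). A second probe set of Arnt, 1419996_s_at, differed by 0.62 (adjusted p = 0.0088 over all tested probe sets), with Gr1hi arrays at 7.36, 7.16 and 7.46 and Gr1lo arrays at 6.67, 6.63 and 6.82. The remaining 3 probe sets of the gene read 2.96 or less. The call of the first was lost without Gr1hi replicate 1 (adjusted p = 0.0971), Gr1hi replicate 3 (0.0936), Gr1lo replicate 2 (0.0728) or Gr1lo replicate 3 (0.0694), and both calls were lost when arrays were centred on the hybridization controls.

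**Figure D1:**
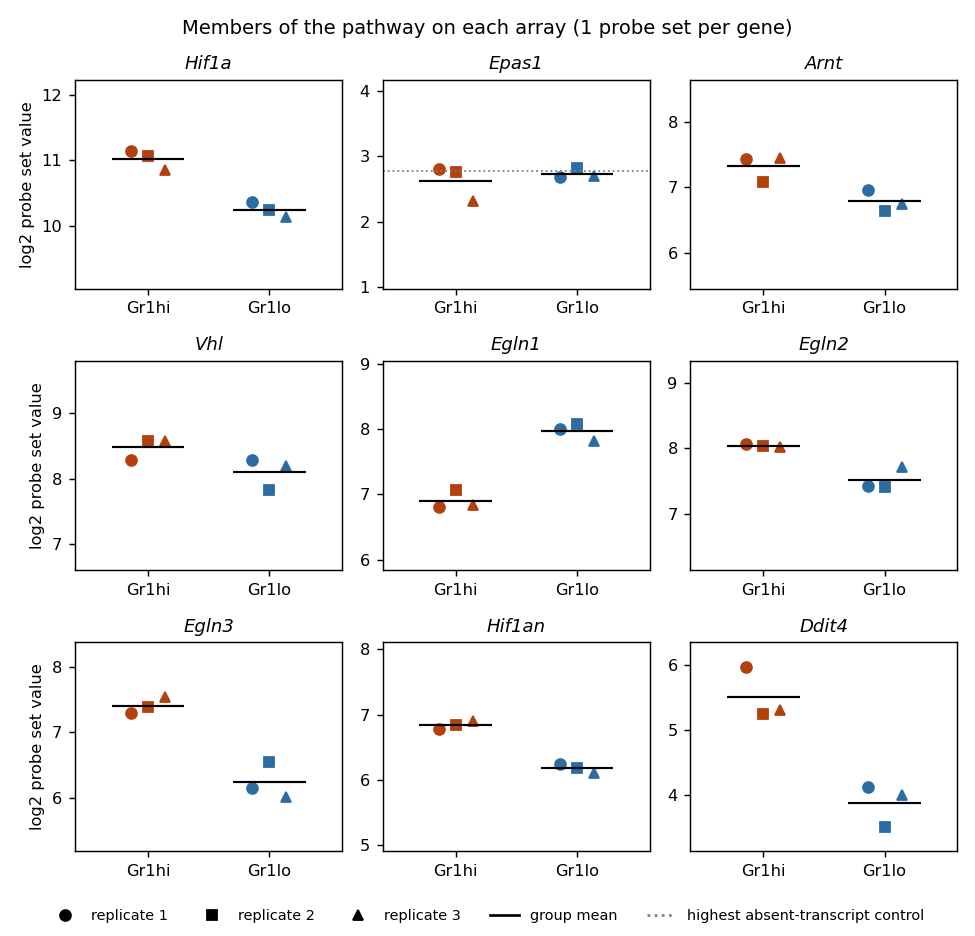
Log2 probe set value of each member on the 6 arrays, Gr1hi left and Gr1lo right in every panel; symbols are the replicate numbers, bars the group means, and the dotted line the highest absent-transcript control (2.77). All panels span the same log2 range around their own middle. Egln1 is the gene whose Gr1hi arrays (6.80 to 7.07) all lie below its Gr1lo arrays (7.82 to 8.08), and Epas1 the one at the control level.

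The prolyl hydroxylases, the oxygen sensors proper, went in opposite directions. Egln1, whose product PHD2 is the main hydroxylase of HIF-1 alpha in most tissues, read 6.80, 7.07 and 6.83 in Gr1hi and 8.0, 8.08 and 7.82 in Gr1lo. It fell by 1.07 (SE 0.16, limma adjusted p = 0.000311), with no overlap. The second probe set, 1451110_at, read 4.24, 4.78 and 4.66 in Gr1hi and 5.68, 5.84 and 5.42 in Gr1lo, and fell by 1.09. Both probe sets carry the same source accession in the annotation, so they are not independent measurements of the gene. Egln1 was lower under every setting tried, by 0.39 (adjusted p = 0.049) at the least, after centring on the median gene, and by 1.33 after centring on the hybridization controls.

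Egln3, whose product PHD3 is known in mouse neutrophils for prolonging survival in low oxygen, read 7.30, 7.38 and 7.54 in Gr1hi and 6.15, 6.54 and 6.01 in Gr1lo. It rose by 1.17 (SE 0.19, limma adjusted p = 0.000552). Its other probe set, 1418648_at, rose by 0.71, with 5.96, 5.77 and 5.52 in Gr1hi and 5.08, 4.91 and 5.14 in Gr1lo. Neither probe set's groups overlapped. The first kept its call under all settings (0.91 to 1.85), and the second lost it when arrays were centred on the hybridization controls (0.45, adjusted p = 0.128).

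Egln2, the third prolyl hydroxylase gene, read 8.06, 8.04 and 8.02 in Gr1hi and 7.42, 7.41 and 7.72 in Gr1lo. The Gr1hi arrays were close together and all above Gr1lo. The rise was 0.53 (SE 0.15, limma adjusted p = 0.0133). That call was lost without Gr1lo replicate 1 (0.0554) and after centring on the hybridization controls (0.27, adjusted p = 0.314).

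A change of one transcript relative to another on the same array does not depend on array scaling. The log2 value of Egln3 minus that of Egln1 was 0.50, 0.30 and 0.71 in Gr1hi and -1.85, -1.54 and -1.81 in Gr1lo. Since probe sets differ in brightness, only the shift of 2.24 between the groups can be read, not the sign of the values. It is larger than the SD of 0.20 in Gr1hi and 0.17 in Gr1lo. For Hif1a minus Egln1 the shift was 1.85 (4.12 ± 0.19 in Gr1hi and 2.27 ± 0.10 in Gr1lo; SD, n = 3 each). These 2 pairs were chosen after the values were seen, so the shifts are descriptions without a test.

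Hif1an, which encodes the asparaginyl hydroxylase FIH, read 6.78, 6.84 and 6.90 in Gr1hi and 6.25, 6.18 and 6.11 in Gr1lo. Replicates were tight and the groups separate. The rise was 0.65 (SE 0.16, limma adjusted p = 0.00664). Centring on the hybridization controls reduced it to 0.40 (adjusted p = 0.162). Probe set 1447817_at gave 0.27 with overlapping groups (95% interval -0.07 to 0.61, adjusted p = 0.154), and 1452845_at read 2.75 or less and was not tested.

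Vhl, the substrate receptor that recognises hydroxylated HIF alpha, read 8.28, 8.58 and 8.58 in Gr1hi and 8.29, 7.82 and 8.20 in Gr1lo. Replicate 1 of Gr1hi sat within the Gr1lo range. The difference of 0.38 did not pass the test (SE 0.17, limma adjusted p = 0.0848), and the interval, -0.0034 to 0.76, reaches from no change to a rise like those of Hif1a and Hif1an. The weaker probe set 1421071_at differed by -0.06 (-0.45 to 0.33). After centring on the median gene the first was called higher (1.05, adjusted p = 0.000373).

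Ddit4, also called REDD1, is induced by HIF-1 and by several stresses and restrains mTORC1 through the TSC complex. Its 1 probe set read 5.96, 5.25 and 5.31 in Gr1hi and 4.13, 3.52 and 4.0 in Gr1lo. The rise of 1.62 (SE 0.25, limma adjusted p = 0.000402) was the largest among the 9 genes on this scale. Under every setting tried it stayed called, between 1.36 and 2.29.

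Taking all 22 probe sets of the members, 17 passed the filter and 5 did not. The filter asked for at least 3 of 6 arrays above that array's 40th percentile, which lay between 2.57 and 2.68. Of the 17, 10 were higher and 2 lower in Gr1hi at an adjusted p under 0.05 over 22715 tested probe sets, of which 26.2% were higher and 30.0% lower. No 2 tested probe sets of a gene were called in opposite directions. With arrays centred on the hybridization controls 5 were higher and 2 lower (15.8% and 36.4% of all tested probe sets): 3 of Hif1a, 1 of Egln3 and 1 of Ddit4 were higher, and both of Egln1 lower.

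**Figure D2:**
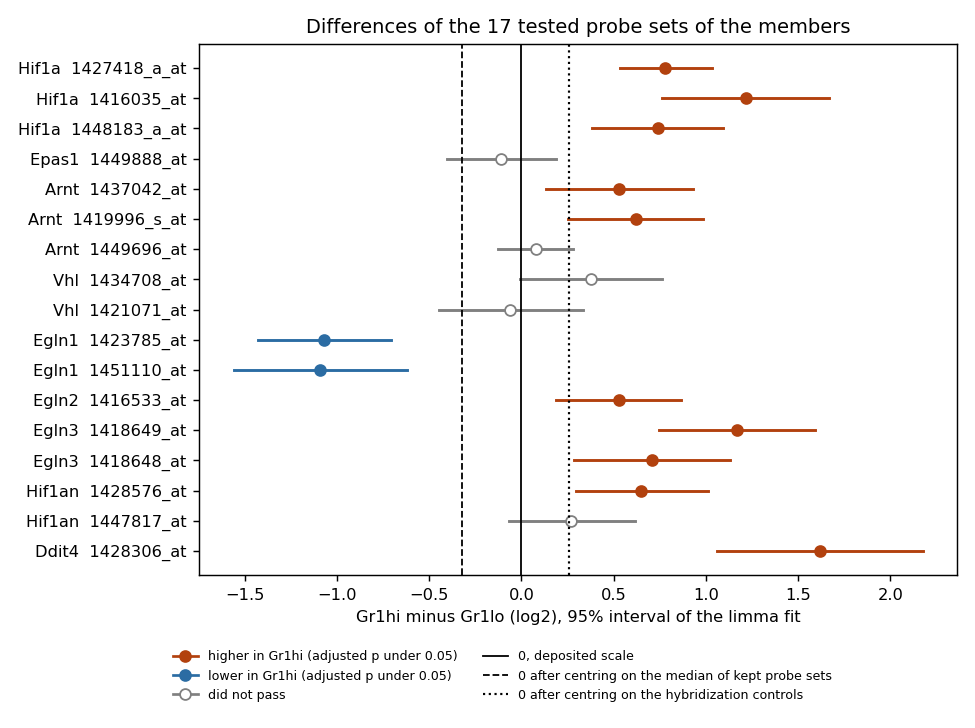
Gr1hi minus Gr1lo (log2) of the 17 tested probe sets of the members with the 95% intervals of the limma fit; filled points passed the adjusted test. Vertical lines mark 0 on the deposited scale and where 0 would lie after centring arrays on the median of kept probe sets (-0.32) or on the hybridization controls (0.26). With their whole intervals, both Egln1 probe sets lie left of all 3 lines, and those of Ddit4, Hif1a, Egln3 and Hif1an 1428576_at lie right of them. Points of Egln2, Arnt 1437042_at and 1419996_s_at, Vhl 1434708_at and Hif1an 1447817_at also lie right, but their intervals cross a line.

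Of 21 listed genes of the other HIF complex proteins and cofactors 19 had a probe set and 16 were tested, with 5 higher, 5 lower and 6 not called, and a median difference of 0.01. These counts lie near those of all tested genes, of which 24.6% were higher and 31.8% lower. Both coactivator genes that HIF recruits rose: Crebbp (CBP) averaged 10.83 ± 0.09 in Gr1hi and 9.92 ± 0.24 in Gr1lo (SD, n = 3 each), a rise of 0.91 (limma adjusted p = 0.000262). Ep300 (p300) rose by 0.64, with arrays at 11.26, 11.14 and 11.03 in Gr1hi and 10.62, 10.43 and 10.46 in Gr1lo. Cited2, which competes with HIF-1 alpha for those coactivators, fell by 0.78, with 11.56, 10.96 and 10.78 in Gr1hi and 12.15, 11.84 and 11.65 in Gr1lo. On the median-gene scale it was no longer called (-0.11), but the median difference of all tested genes there was 0.70. Pkm, the pyruvate kinase gene whose product can also act as a HIF coactivator, rose by 0.59, a call lost when centred on the hybridization controls (0.33). Fkbp8, a chaperone-like protein of the immunophilin family, rose by 0.64 (adjusted p = 0.0145). It was not called without Gr1lo replicate 1 (0.075), without both replicate 3 arrays (0.0892) and on the hybridization-control scale (0.225).

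The 5 that fell included, besides Cited2, 3 genes whose products act on the alpha subunit or the EGLN proteins. Cul2, the scaffold of the VHL ligase, read 5.31, 5.79 and 5.92 in Gr1hi and 7.25, 7.93 and 7.28 in Gr1lo, and fell by 1.81 (limma adjusted p = 0.000177). Hsp90aa1, a chaperone that holds HIF-1 alpha, fell by 1.71 (3.27-fold). Siah2, a ligase that degrades EGLN proteins, was called lower, with 2.89, 2.72 and 2.88 in Gr1hi, at the absent-transcript level, and 4.36, 5.24 and 4.33 in Gr1lo. Its relative Siah1a, with the same known activity, rose by 0.63, with 8.70, 8.94 and 8.80 in Gr1hi and 8.27, 8.01 and 8.26 in Gr1lo (limma adjusted p = 0.00335), a call lost when centred on the hybridization controls (0.37). Of the 3 tested Siah1a probe sets 1 was called. Cul2, Hsp90aa1 and Siah2 were lower under both centrings. Eloc (elongin C of the VHL ligase), the fifth that fell, differed by -0.31 (adjusted p = 0.0269) but was called higher on the median-gene scale (0.37, adjusted p = 0.0106), and its call was lost without Gr1hi replicate 1 (0.0652), Gr1hi replicate 3 (0.0891), Gr1lo replicate 1 (0.0664) or Gr1lo replicate 2 (0.0718). The 0.37 lay below the median difference of all tested genes on that scale, 0.70. Of the 4 tested Eloc probe sets 1 was called lower, and their mean differed by -0.11 (limma adjusted p = 0.463). Hif3a, an alpha subunit that can oppose the others, read 3.08 ± 0.13 in Gr1hi and 3.15 ± 0.15 in Gr1lo and did not pass (adjusted p = 0.682). The list's counts moved with scaling: 12 higher and 3 lower after centring on the median gene (65.6% and 18.2% of all genes), 2 higher and 6 lower after centring on the hybridization controls (14.6% and 38.1%).

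Known HIF targets held calls in both directions. Of 62 listed genes 55 had a probe set and 47 were tested, with 20 higher, 12 lower and 15 not called (24.6% and 31.8% of all tested genes were higher and lower), and a median difference of 0.20 against 0.03. After centring on the median gene 34 were higher and 8 lower (65.6% and 18.2% of all genes), and after centring on the hybridization controls 14 and 15 (14.6% and 38.1%). Car9 alone of the 78 tested genes of the target, cofactor and mTORC1 lists passed the filter through 1 group, Gr1lo, where it is high; without it 11 of 46 targets were lower.

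Among targets of glucose uptake and glycolysis 9 of 18 rose and 4 fell (24.6% and 31.8% of all tested genes). Centring on the median gene gave 15 higher and 2 lower (65.6% and 18.2% of all genes), and centring on the hybridization controls 5 and 5 (14.6% and 38.1%). With 1 array left out 6 to 8 were higher. Slc2a1, the glucose transporter GLUT1, read 10.58, 10.97 and 10.55 in Gr1hi and 8.62, 8.80 and 8.56 in Gr1lo, a 4.11-fold rise (limma adjusted p = 2.4e-06). Slc2a3, another glucose transporter, rose 2.48-fold, Pfkfb4, which sets the level of a phosphofructokinase activator, 2.58-fold and the glycogen phosphorylase gene Pygl 1.64-fold. Aldoa (aldolase) rose 1.36-fold, a call lost when centred on the hybridization controls. Of the 5 tested Aldoa probe sets 3 were called. The glycogen synthase gene Gys1 fell by 0.74, which the median-gene scale did not call, and Tpi1 (triosephosphate isomerase) fell by 1.27. Of the 2 tested Gys1 probe sets 1 was called. Pgam1 (phosphoglycerate mutase) fell by 0.28 on the deposited scale but was called higher on the median-gene scale (0.39, adjusted p = 0.00117). That value lay below the median difference of all tested genes on that scale, 0.70.

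Pdk1, the kinase with which HIF-1 keeps pyruvate out of mitochondria, went the other way and fell by 1.90 (SE 0.49, limma adjusted p = 0.00855). Its arrays were spread: 3.33, 3.09 and 4.18 in Gr1hi and 5.33, 6.57 and 4.41 in Gr1lo. Of the 3 tested Pdk1 probe sets 2 were called lower, and the gene's difference ran from -2.74 to -0.72 over the settings tried. Pgk1 differed by 0.27 (adjusted p = 0.0198), a call lost without Gr1hi replicate 2 (0.0722) or Gr1lo replicate 1 (0.0691) and with a difference of 0.01 after centring on the hybridization controls. Of its 3 tested probe sets 1 was called higher, and their mean differed by 0.17 (limma adjusted p = 0.0832). Ldha, the classic glycolytic target, differed by 0.20 (adjusted p = 0.0876).

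In the mitochondrial list 1 of 4 tested genes rose and 2 fell (24.6% and 31.8% of all tested genes). Bnip3, a mitophagy receptor and one of the most responsive HIF-1 targets, read 9.91, 9.86 and 10.06 in Gr1hi and 6.78, 6.00 and 6.90 in Gr1lo. That is a 10.4-fold rise (difference 3.38, limma adjusted p = 2.16e-06), and no setting lowered it below 3.10. Lonp1, a mitochondrial protease, read 4.01, 3.91 and 3.97 in Gr1hi and 6.62, 7.53 and 6.77 in Gr1lo, an 8.06-fold fall. Higd1a, a regulator of respiratory complexes, fell by 0.96, but was not called on the median-gene scale (-0.28, against a median of 0.70 for all tested genes). Of its 3 tested probe sets 1 was called lower, and their mean differed by -0.27 (limma adjusted p = 0.188).

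Secreted factors, receptors and iron genes were divided with 4 of 12 higher, 4 lower and 4 not called. These counts lie near those of all tested genes, of which 24.6% were higher and 31.8% lower. Vegfa, the growth factor of blood vessels, read 3.87, 4.19 and 4.85 in Gr1hi and 5.95, 7.07 and 5.49 in Gr1lo and fell 3.65-fold (limma adjusted p = 0.00297). Of its 2 tested probe sets 1 was called. Tfrc, the transferrin receptor through which cells take up iron, fell 11.6-fold, with arrays at 7.28, 7.74 and 6.92 in Gr1hi and 10.76, 11.25 and 10.55 in Gr1lo. Mif, a cytokine, fell 5.13-fold. Car9, the carbonic anhydrase used as a hypoxia marker, read 2.06 or less in Gr1hi, below the absent-transcript controls, and 3.16 to 3.40 in Gr1lo. It had to differ to be tested at all, so its call is no support, and without it 3 of 11 genes of the list were lower.

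Those that rose in that list were Nt5e, Hmox1, Trem1 and Cxcr4. Nt5e (CD73), which makes adenosine, read 10.54, 10.95 and 10.82 in Gr1hi and 6.95, 4.73 and 6.79 in Gr1lo, a 24.5-fold rise with a wide spread in Gr1lo. Of its 3 tested probe sets 2 were called higher. Over the settings tried its difference ran from 1.95 to 5.29, against 4.61 in the main fit. Hmox1, heme oxygenase, rose 7.32-fold, and Trem1, a receptor that amplifies neutrophil activation, 5.02-fold. Cxcr4, the receptor that retains neutrophils in marrow, rose 1.46-fold, a call lost when centred on the hybridization controls.

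Of the remaining 13 tested targets 6 rose and 2 fell (24.6% and 31.8% of all tested genes). Ppp1r3b, a glycogen-targeting phosphatase subunit, rose 8.37-fold, the survival gene Mcl1 3.04-fold and Ndrg1, a common hypoxia-response gene, 2.56-fold. Ankrd37, another gene used in hypoxia signatures, read 3.62, 3.87 and 4.63 in Gr1hi and 2.56, 2.82 and 2.74 in Gr1lo, near the absent-transcript level, and rose by 1.33. The histone demethylase gene Kdm3a rose by 0.71. Ero1a, an oxidase of the endoplasmic reticulum, fell by 1.18, and the transcriptional repressor gene Bhlhe40 by 0.88. On the median-gene scale Bhlhe40 was not called (-0.20, against a median of 0.70 for all tested genes).

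**Figure D3:**
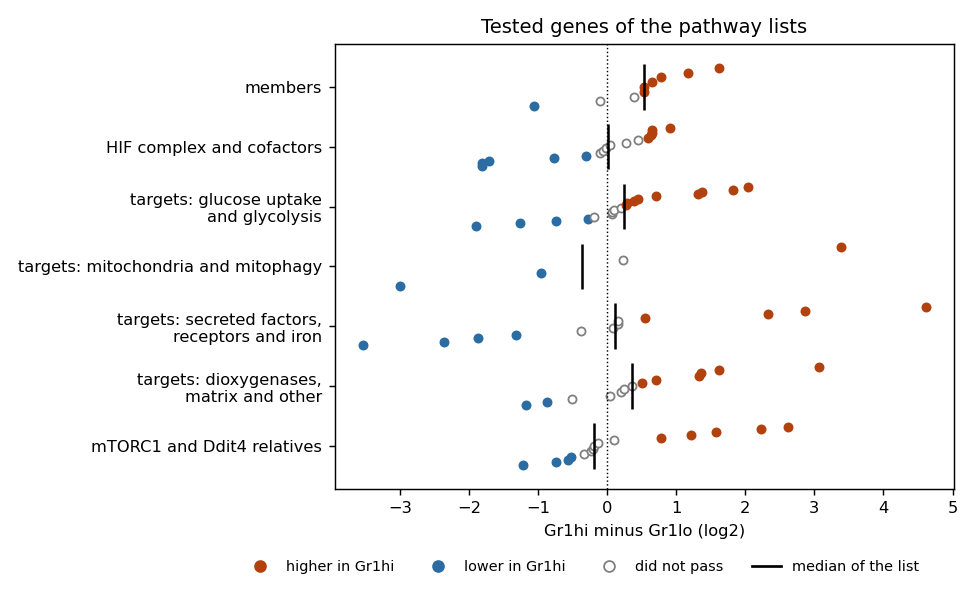
Gr1hi minus Gr1lo (log2) of every tested gene in the member list and 6 further lists of the pathway; red points were called higher and blue points lower in Gr1hi, open points did not pass, and black bars are list medians. The bar of the members stands at 0.53, those of the other lists between -0.36 and 0.36, and each target list holds calls in both directions.

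The list of mTORC1 genes and relatives of Ddit4 held calls in both directions. Of 17 listed genes 15 were tested, with 5 higher, 4 lower and 6 not called, and a median difference of -0.19 (24.6% and 31.8% of all tested genes were higher and lower). Sesn2, a stress-induced inhibitor of mTORC1 like Ddit4, read 6.60, 6.28 and 6.46 in Gr1hi and 3.91, 3.63 and 3.95 in Gr1lo, a 6.13-fold rise (limma adjusted p = 3.14e-06). Its relative Sesn3 rose 2.99-fold, whereas Sesn1 differed by -0.21 (adjusted p = 0.329). Eif4ebp1, the translation repressor that mTORC1 inactivates, rose 2.31-fold. Txnip, a brake on glucose uptake, rose 4.7-fold with 13.12, 12.85 and 12.96 in Gr1hi and 10.91, 10.47 and 10.86 in Gr1lo. Rictor, the defining subunit of the sister complex mTORC2, rose by 0.77. Deptor, an inhibitor bound to mTOR, fell by 1.22. Mlst8, a subunit of both complexes, fell by 0.75, a call lost on the median-gene scale (-0.08) and without both replicate 3 arrays (adjusted p = 0.0936). Of its 2 tested probe sets 1 was called, and their mean differed by -0.56 (limma adjusted p = 0.0909). Rptor, the subunit that defines mTORC1, fell by 0.57, a call lost without Gr1hi replicate 3 (0.0537), and on the median-gene scale its difference was 0.11. Of the 2 tested Rptor probe sets 1 was called. Rheb, the GTPase that activates the complex, fell by 0.53, though on the median-gene scale its difference was 0.14. Mtor itself differed by -0.34 and did not pass (adjusted p = 0.051). It was called lower with filters at the 60th percentile or log2 5, without the variance trend and with array weights. On the hybridization-control scale it was also called lower (-0.60, limma adjusted p = 0.0145), and on the median-gene scale higher (0.34, 0.0408). On the median-gene scale 10 of the list were higher and 1 lower (65.6% and 18.2% of all genes), and with the hybridization controls 5 and 5 (14.6% and 38.1%). The median difference of all tested genes on the median-gene scale was 0.70, above those of Mlst8, Rptor, Rheb and Mtor.

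Likeness to single members was read as Pearson's r over the 6 arrays, which mostly reflects the split into 2 groups. For Ddit4 the closest genes were Cep120 (r = 0.998), Ugcg (0.998) and Ppcdc (0.997), and for Egln1 they were Kat14 (0.999), Rpe (0.999) and Msantd3 (0.999). Over these arrays 1990 of the 12739 tested genes had an r above 0.9 with Ddit4, and 3255 with Egln1, so these names stand out little from many others.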

How the data were processed

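The authors deposited log2 values of GCRMA, a method that estimates background from probe sequence, as named in the submitters' processing notes. The sources used here give neither its version nor its options. No detection calls came with the values. Of 45101 probe sets, 64 controls, 932 with several gene symbols and 9160 with none in the annotation used were left out. Each of 18193 genes was represented by the probe set of highest mean over the 6 arrays. Genes with at least 3 of 6 arrays above that array's 40th percentile (12739) were tested with lmFit and a trended eBayes (limma 3.58.1, R 4.3.3, 4 residual and 5.11 prior degrees of freedom), two-sided, adjusted by Benjamini-Hochberg over all of them; probe sets were fitted the same way. Summaries used Python 3.11.15 and pandas 2.3.3. Members and lists were chosen with earlier results of these data known. Named genes are all members and, per list, up to 5 called genes in each direction in order of p, plus Vegfa, Slc2a1, Pdk1, Ldha, Pgk1, Bnip3, Bnip3l (no probe set with that single symbol), Cited2, Ep300, Crebbp, Hif3a, Sesn1, Sesn2, Txnip and Mtor. The 3 genes of highest r with the largest called rise and fall among the members are also named. All 9 members' Entrez identifiers matched RefSeq. Depth is not defined for arrays; the number of arrays limits the precision. Alternatives were filters, variance estimates, scalings, weights, a replicate block, thresholds, probe set means and arrays left out. Same-numbered arrays did not deviate together in every pair (r = 0.17, 0.0043 and 0.15), so the replicate number was not taken as a pairing. Arrays of different number gave r from -0.19 to 0.044. Xist was high on both replicate 3 arrays, and whether same-numbered samples share a source was not tested.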

Additional observations from a re-analysis of the deposited data

How the results depend on the processing

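Over all alternatives, 493 values of 26 results for the members (9 genes and 17 probe sets) gave 438 with the direction and side of the threshold kept, 38 no longer past it, 4 newly past it and 13 with the opposite sign. The 51 other named genes gave 937 of 1010 kept, 55 no longer past, 7 newly past and 11 opposite. Scaling and the test against a 1.5-fold change moved the counts most; leaving out one array moved them little. Centring on the hybridization controls left 3 member genes and 5 member probe sets higher, and 2 cofactor genes higher (14.6% of all genes and 15.8% of all probe sets). Centring on the median of kept features gave 12 cofactor genes higher and 3 lower, 34 targets higher, and 10 mTORC1 genes higher and 1 lower. Of all genes 65.6% were then higher and 18.2% lower. Limma's treat, whose null is wider by construction, tested against a 1.5-fold change. It called 2 member genes, 3 member probe sets, 0 cofactor genes, 12 targets and 4 mTORC1 genes higher. Lower by the same test were 1 member gene, 1 member probe set, 3 cofactor genes, 8 targets and 1 mTORC1 gene. In the ordinary test 5 cofactor genes were higher. By treat 10.6% of all genes were higher and 19.0% lower, and 11.1% and 16.7% of all probe sets. At a threshold of 0.01, 5 mTORC1 genes were higher and 2 lower (18.8% and 27.2% of all genes). Leaving out one array gave 5 to 6 member genes higher and 1 lower, 9 to 10 member probe sets higher and 2 lower (beside 21.6% to 23.3% of all genes and 22.9% to 24.7% of all probe sets higher, and 29.8% to 30.8% and 27.9% to 29.0% lower), 4 to 6 cofactor genes higher and 4 to 5 lower, 17 to 18 targets higher and 12 to 13 lower, and 5 mTORC1 genes higher and 3 to 4 lower. With the replicate block the counts were 6 member genes higher and 1 lower (23.8% and 31.6% of all genes), 10 member probe sets higher and 2 lower (25.6% and 29.7% of all probe sets), and 19 targets higher and 12 lower.

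Signs turned in results that had not passed the test and in 4 that had: Rheb, Rptor, Eloc and Pgam1, of which Eloc and Pgam1 were then called higher. After centring on the median of kept features, Epas1 differed by 0.57 (0.21 for its probe set 1449888_at), Hif3a by 0.61, Rheb by 0.14, Rptor by 0.11, Eloc by 0.37, Pgam1 by 0.39, Mtor by 0.34, Sesn1 by 0.46 and Vhl probe set 1421071_at by 0.26. Epas1 (limma adjusted p = 0.00448), Hif3a (0.00168), Mtor (0.0408) and Sesn1 (0.0302) were then called higher too. The median difference of all tested genes under that setting was 0.70. After centring on the hybridization controls, Ldha differed by -0.05 and Arnt probe set 1449696_at by -0.18. Repeated quantile normalization gave 0.01 for Sesn1 and 0.06 for 1421071_at, and averaging all probe sets per gene 0.01 for Epas1 and 0.07 for Hif3a. Without both replicate 3 arrays Epas1 and 1449888_at differed by 0.03 and 1421071_at by 0.06. Leaving out one array at a time, Epas1 and 1449888_at ranged between -0.19 and 0.05, Hif3a between -0.14 and 0.01, and 1421071_at between -0.20 and 0.06. The cause of these shifts beyond the constant that each centring adds was not tested. Values near the absent-transcript level, such as those of Epas1 and Car9, limit what the arrays can show.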
